A study of Mus musculus with 4 samples.

Results

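The unfolded protein response and the integrated stress response were followed here through 33 genes, chosen by name and grouped by role into 7 sensors and transcription factors, 13 chaperones and foldases, 3 genes of ER-associated degradation (ERAD) and 10 targets of the factor ATF4. Every probe set that the platform annotation gave to a single one of these genes was taken, 81 of the 45037 non-control probe sets on the Affymetrix mouse expression array used. The filter on dim signals left 69 of them, for 31 genes, among the 22519 probe sets and 10706 genes tested. Vldlr, a lipoprotein receptor, and Atf3, a stress-induced transcription factor, did not pass by any probe set.

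Total RNA came from 4 stably transfected lines of LMTK-, a mouse fibroblast line without thymidine kinase, each on 1 array. All 4 carried the expression vector pCI-neo. In vector 1 and vector 2 it was empty, and in the clones MTf 4 and MTf 6 it held the cDNA of mouse melanotransferrin, an iron-binding membrane protein of the transferrin family. Each MTf line is 1 clone, and whether vector 1 and vector 2 are separate clones is not stated. The p-values therefore measure only the spread between these arrays.

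Proteins bound for secretion or for the membrane fold in the endoplasmic reticulum (ER) with the help of chaperones. When unfolded protein collects there, the membrane sensors ATF6, IRE1 (gene Ern1) and PERK (gene Eif2ak3) signal to the nucleus. ATF6 and the spliced form of XBP1, made by IRE1, raise chaperone and ERAD genes through the ER stress response element (ERSE). PERK and other kinases phosphorylate the initiation factor eIF2, which favours translation of ATF4, and ATF4 raises genes of amino acid supply and feedback genes. An array measures transcript levels, so neither XBP1 splicing nor ATF4 translation was seen here.

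Many promoters of the chaperones share an element that was not found in the other classes of the 33 genes. They are shown because the chaperones are compared with the ATF4 targets below. RefSeq promoters of GRCm38.p6, from 250 bases before to 50 after a gene's start, were found for 30 of the 33 genes, not for Atf6, Manf and Hyou1. Both strands were searched for ERSE, which is CCAAT and CCACG with 9 bases of any kind between them. It was present in 7 of 11 chaperones with a promoter, in 0 of 6 sensors and factors, 0 of 3 ERAD genes and 0 of 10 ATF4 targets. Over all 27025 genes with a promoter, 0.137% held it. Of 48 further genes of both responses with a promoter, taken up below, 3 held it (Derl3, Ero1b and Syvn1). Capitals mark the fixed bases, and each sequence runs along the element with 12 bases on either side.
Hspa5: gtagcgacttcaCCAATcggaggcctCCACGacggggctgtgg
Calr: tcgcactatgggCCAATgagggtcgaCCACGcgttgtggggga
Canx: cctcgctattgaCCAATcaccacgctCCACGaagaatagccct
Pdia6: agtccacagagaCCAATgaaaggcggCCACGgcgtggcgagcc
Dnajc3: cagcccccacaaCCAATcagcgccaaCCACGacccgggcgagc
Creld2: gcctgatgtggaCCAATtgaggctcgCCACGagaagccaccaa
Hsp90b1: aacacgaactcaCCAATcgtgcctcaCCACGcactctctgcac

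These stretches lie upstream of the start at chr2:34772013-34772055 (Hspa5), chr8:84847063-84847105 (Calr), chr11:50325788-50325830 (Canx), chr12:17266479-17266521 (Pdia6), chr14:118937815-118937857 (Dnajc3), chr15:88819508-88819550 (Creld2) and chr10:86705521-86705563 (Hsp90b1). Those of Calr, Creld2 and Hsp90b1 are read from the strand opposite to the gene. Hsp90b1 held a further match, on its own strand. In Hspa5 the element ended 46 bases before the start. Herpud1 held the related ERSE-II, which is ATTGG and CCACG with 1 base between them and was in 0.0444% of all genes with a promoter. Dnajb11, of the further genes, held it too. The UPRE letters TGACGTGG matched no member promoter, and the cyclic AMP element TGACGTCA matched only Ppp1r15a.

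ATF4 binds composite C/EBP-ATF elements. The letters TGATGNAAT matched no member promoter, and a shorter core, TGATGNAA, was searched after that. It was in 5 of 10 ATF4 targets (Asns, Chac1, Slc7a11, Trib3 and Vldlr), in Atf3 and Herpud1 and in 0 of 11 chaperones. Over all genes with a promoter 4.51% held it, and of the 48 further genes 4 did (Jdp2, Nupr1, Pycr1 and Slc1a4). This core overlaps the longer motif by design. A match describes letters in this window only. Matches are shown for 3 tested ATF4 targets with the core upstream of the start, with capitals on the fixed bases. The match of Vldlr, which was too dim to test, a second one of Slc7a11 and that of Trib3, which lies after the start, are not shown.
Asns: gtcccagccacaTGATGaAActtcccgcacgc
Chac1: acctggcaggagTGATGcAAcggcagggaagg
Slc7a11: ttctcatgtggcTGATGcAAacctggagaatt

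They lie at chr6:7693213-7693244 (Asns), chr2:119351037-119351068 (Chac1, opposite strand) and chr3:50443660-50443691 (Slc7a11).

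Between the melanotransferrin clones and the vector lines, none of the 69 member probe sets passed limma's test (adjusted p = 1.00 for each), where 0.00444% of all tested probe sets, 1 in all, did. At an unadjusted p under 0.05 there was 1 member, Creb3l3, against 1.81% of all tested probe sets. Creb3l3 passed the filter only through the clones, so it had to differ. The median absolute log2 difference of the member probe sets was 0.11, and the median standard error 0.20, so most differences were smaller than their error. Over all tested probe sets these medians were 0.15 and 0.25, so this was not particular to the members. A lower signal can mean fewer cells with a transcript or less of it per cell, which cannot be told apart here.

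Chaperones and foldases were lowest in 1 line. Of the 13 genes, each represented by its brightest tested probe set, 12 had their lowest signal in vector 1, where 24.9% of all genes tested had theirs. The median deviation of the chaperones from each gene's own 4-array mean, in log2 of signal + 32, was -0.18 and 0.10 in vectors 1 and 2 and 0.09 and -0.011 in MTf 4 and 6. All 13 lay below their own mean in vector 1, where 47.9% of all genes lay above theirs, and all 13 above it in MTf 4, against 54.3% of all genes. The exception to vector 1 was Dnajb9, lowest in MTf 6. These deviations add to 0 for each gene, so a low line lifts the others, and with 1 array a line they have no test.

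Targets of ATF4 had their low point in another line. Of 9 tested genes, 6 had their lowest signal in MTf 4, against 26.2% of all genes. All 9 lay above their own mean in MTf 6, against 46.2% of all genes. With the mean of all tested probe sets of a gene it was 8 of 9. Over all 17 tested probe sets of ATF4 targets, 11 were lowest in MTf 4. The median deviation was 0.023 and 0.0032 in vectors 1 and 2 and -0.20 and 0.14 in MTf 4 and 6. Chaperones minus ATF4 targets thus came to -0.20 and 0.10 in vectors 1 and 2 and 0.29 and -0.15 in MTf 4 and 6. This gap was -0.05 ± 0.21 (SD, n = 2) in the vector lines and 0.07 ± 0.31 (SD, n = 2) in the clones, so the groups differed by 0.12, less than the spread within either. MTf 4 and vector 2 had chaperones above ATF4 targets, and MTf 6 and vector 1 the reverse.

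**Figure D1:**
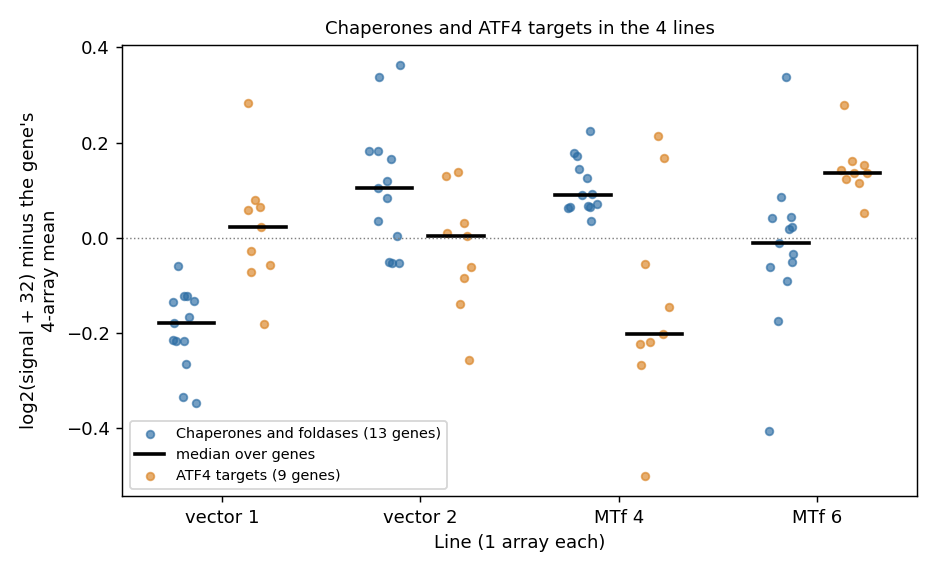
Each point is 1 gene, plotted for each line (1 array each) as log2(signal + 32) minus the gene's own 4-array mean, for 13 chaperones and foldases (blue) and 9 ATF4 targets (orange), with black bars at the medians over genes. The chaperone median is lowest in vector 1, at -0.18, and the ATF4 target median lowest in MTf 4, at -0.20.

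In the comparison of the groups, 11 chaperones were higher and 2 lower in the mean of the clones, with a median log2 difference of 0.08. Over all genes tested the median was -0.0050, and 49.0% were higher. None of the chaperones passed the test, and the median was -0.07 without vector 1. For ATF4 targets the median was -0.07, with 3 of 9 genes higher, and it was 0.14 without MTf 4 and -0.24 without MTf 6. By the brightest probe sets, both clones lay above both vector lines in 7 of the 31 tested genes, against 11.8% of all genes. They lay below them in 0, against 12.6%. Creb3l3, which passed the filter only through the clones, is 1 of the 7. Over all 69 tested member probe sets, 11 were above and 4 below, against 12.1% and 13.6% of all tested probe sets.

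**Figure D2:**
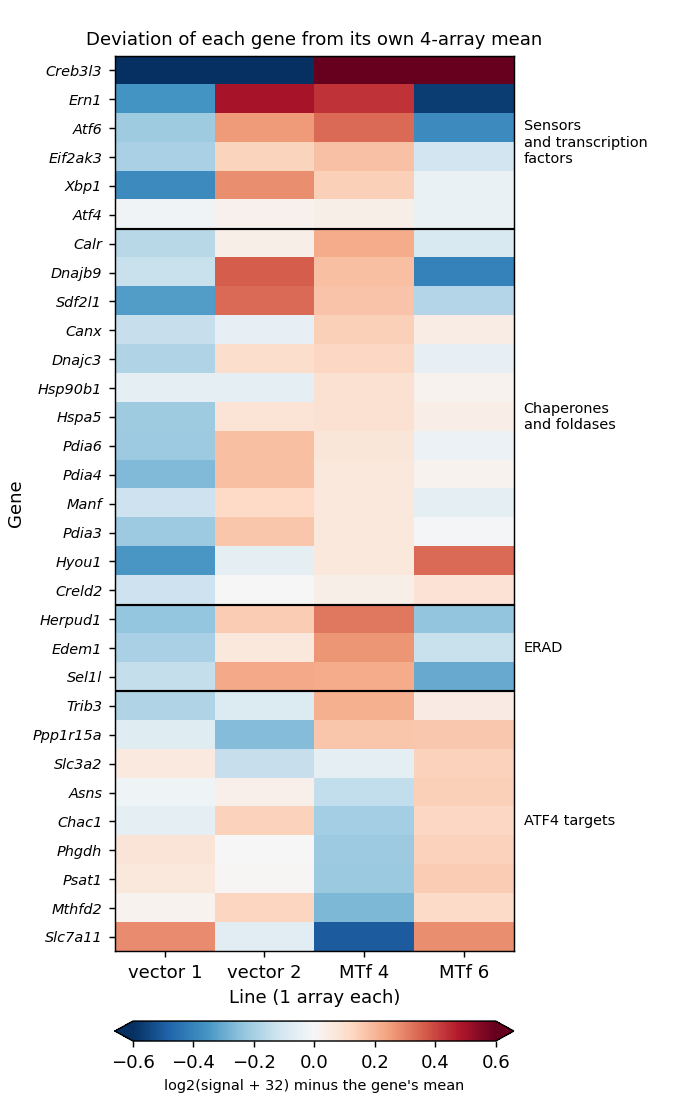
Each row is 1 of the 31 tested genes and each column 1 line (1 array each), and colour gives log2(signal + 32) minus the gene's own 4-array mean, red above and blue below, with colours ending at 0.6 either way. All 13 chaperones are blue in vector 1, and 7 of 9 ATF4 targets are blue in MTf 4.

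Creb3l3, an ER membrane transcription factor of the ATF6 kind known from liver, had the largest difference among the members. Its only probe set was at 110.1 and 73.9 in vectors 1 and 2 and at 369.6 and 559.9 in MTf 4 and 6. The clones lay well apart from the vector lines, whose signals were both under the filter value of 205.6. The log2 difference was 1.99 (SE 0.41, 95% interval 1.04 to 2.94), or 3.97-fold, and ranked 9 of 22519 by unadjusted p (limma, adjusted p = 1.00). The gene passed the filter only through the clones, and a gene that does so has to differ. With a larger or a smaller offset than 32 the log2 difference was 1.42 or 2.32.

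The membrane sensors varied more within the groups than between them. Ern1, the IRE1 sensor, was at 731.8 and 1350.1 in vectors 1 and 2 and at 1292 and 627.5 in MTf 4 and 6. Signals of vector 2 and MTf 4 were about alike and high, and those of vector 1 and MTf 6 were low, so the groups overlapped. Its log2 difference was -0.14 (95% interval -1.08 to 0.80; limma, adjusted p = 1.00), while vector 2 over vector 1 was 1.81-fold. Of the other tested Ern1 probe sets, 1 had the same order of lines in pairs (423.0, 726.0, 584.9 and 340.1) and 1 did not (478.8, 467.7, 531.6 and 644.0), each from vector 1 to MTf 6.

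Atf6, the sensor that is itself cut into a transcription factor, had the same high and low lines as Ern1 by its brightest probe set. It was at 1265 and 1766 in vectors 1 and 2 and at 1874 and 1123 in MTf 4 and 6. The groups overlapped, and the log2 difference was -0.04 (95% interval -0.74 to 0.66). Of its other tested probe sets, 1 was highest in vector 2 and lowest in MTf 6, and in 1 both clones (851 and 861.7) were below both vector lines (947.1 and 1084), with MTf 4 the lowest. Eif2ak3, the PERK sensor, was at 3963 and 4982 in vectors 1 and 2 and at 5134 and 4194 in MTf 4 and 6, again with MTf 4 and vector 2 as the higher lines but with vector 1 the lowest. A dimmer Eif2ak3 probe set was lowest in vector 2, at 187.2, and highest in MTf 4, at 323.9.

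Xbp1, the factor whose message IRE1 splices, was at 16324 and 25816 in vectors 1 and 2 and at 23526 and 20670.3 in MTf 4 and 6. Vector 1 was the low line and the groups overlapped, with a log2 difference of 0.10 (95% interval -0.45 to 0.65). Its 4 tested probe sets were all highest in vector 2, but their group differences ran from -0.54 to 0.10, the widest span among the members. Atf4 hardly moved. It was at 31153 and 32208 in vectors 1 and 2 and at 32392 and 30735 in MTf 4 and 6, a range of 1.05-fold and a log2 difference of -0.0056 (95% interval -0.35 to 0.34). A second Atf4 probe set was lowest in MTf 4, at 11959, against 14027 to 15919 in the other lines. Atf3 was at 163.4 and 21.4 in vectors 1 and 2 and at 89.4 and 5.2 in MTf 4 and 6, too dim to test.

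Among the chaperones, Hspa5 encodes BiP, the Hsp70 of the ER lumen that also holds the sensors inactive. It was at 73169 and 89968 in vectors 1 and 2 and at 90332 and 87414 in MTf 4 and 6. By this brightest probe set vector 1 alone was low, and the other 3 lines lay close together. The log2 difference was 0.13 (95% interval -0.23 to 0.49; limma, adjusted p = 1.00). It was -0.02 without vector 1, and -0.01 after quantile normalization. A second Hspa5 probe set had both clones above both vector lines, at 57326, 60783, 62860 and 64555 from vector 1 to MTf 6. A dimmer one had vector 1 and MTf 6 as the high lines, at 3667.1, 2756.9, 2756.6 and 3721.9 in that order. These probe sets differed between the groups by 0.11 and 0.01.

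Hyou1, an Hsp70-like exchange factor for BiP, had the smallest p of the chaperones. It was at 5237 and 6434 in vectors 1 and 2 and at 6972 and 8451 in MTf 4 and 6. The groups did not overlap, and the log2 difference was 0.40 (95% interval -0.07 to 0.87; limma, adjusted p = 1.00). Its other tested probe sets differed by 0.14 and 0.10 and overlapped. Canx, the lectin chaperone calnexin, was at 27477 and 29148 in vectors 1 and 2 and at 33399 and 31110 in MTf 4 and 6. Both clones were above both vector lines here too, by 0.19 (95% interval -0.16 to 0.54). Its other tested probe sets differed by 0.046 and 0.14 and overlapped.

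Dnajb9, a co-chaperone of BiP, and Sdf2l1 had wide ranges. Dnajb9 was at 7188 and 10156 in vectors 1 and 2 and at 8934 and 5941 in MTf 4 and 6. Sdf2l1 was at 4608 and 7371 in vectors 1 and 2 and at 6562 and 5152 in MTf 4 and 6. In both, vector 2 and MTf 4 were the high lines and the groups overlapped, with log2 differences of -0.23 (95% interval -0.84 to 0.38) and -0.0036 (95% interval -0.62 to 0.61). Sdf2l1 was 1.60-fold higher in vector 2 than in vector 1, the only chaperone past 1.5-fold there, where 7.88% of all genes were.

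The other chaperones and foldases moved less. Calr, the lectin chaperone calreticulin, was at 41040 and 47187 in vectors 1 and 2 and at 53788 and 43227 in MTf 4 and 6. The disulfide isomerases Pdia3, Pdia4 and Pdia6 were lowest in vector 1 and highest in vector 2, by at most 1.36-fold, with group differences of 0.05, 0.08 and 0.04 by their brightest probe sets. A dim second probe set of Pdia3 had the reverse order, at 341.7 in vector 1 and 277.9 in vector 2. That of Pdia6 ranged over 1.88-fold, was highest in MTf 6 and differed by 0.48 (95% interval -0.31 to 1.27). Hsp90b1, the Hsp90 of the ER, and Creld2, an ER stress-induced protein, had both clones above both vector lines by 0.11 and 0.12. Dnajc3, a BiP co-chaperone, and Manf, a secreted ER stress protein, differed by 0.07 and 0.0035. Over all 28 tested chaperone probe sets, 23 were lowest in vector 1. The 7 chaperones with ERSE had deviations between -0.22 and -0.06 in vector 1, and the 4 with a promoter but no match between -0.34 and -0.13.

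Among ERAD genes the brightest probe sets were highest in vector 2 or MTf 4. Herpud1, an organiser of the degradation complex, was at 8420 and 11002 in vectors 1 and 2 and at 12300.5 and 8378 in MTf 4 and 6. Sel1l, the adaptor of the ERAD ubiquitin ligase, was at 6322 and 8176 in vectors 1 and 2 and at 8149 and 5665 in MTf 4 and 6. Edem1, which draws misfolded glycoproteins out of the folding cycle, was at 3557 and 4258 in vectors 1 and 2 and at 4894 and 3702 in MTf 4 and 6. In all 3, vector 2 and MTf 4 were above vector 1 and MTf 6. Dimmer probe sets did not all share this, since MTf 4 was below vector 1 in 1 for Edem1 (2818.5 and 2885) and vector 2 below vector 1 in 1 for Sel1l (1477.6 and 1967). By the brightest probe sets the median deviations were -0.19, 0.15, 0.26 and -0.24 from vector 1 to MTf 6. Log2 differences between the groups were 0.08, -0.08 and 0.13, with 95% intervals that held 0 (limma, adjusted p = 1.00 each).

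**Figure D3:**
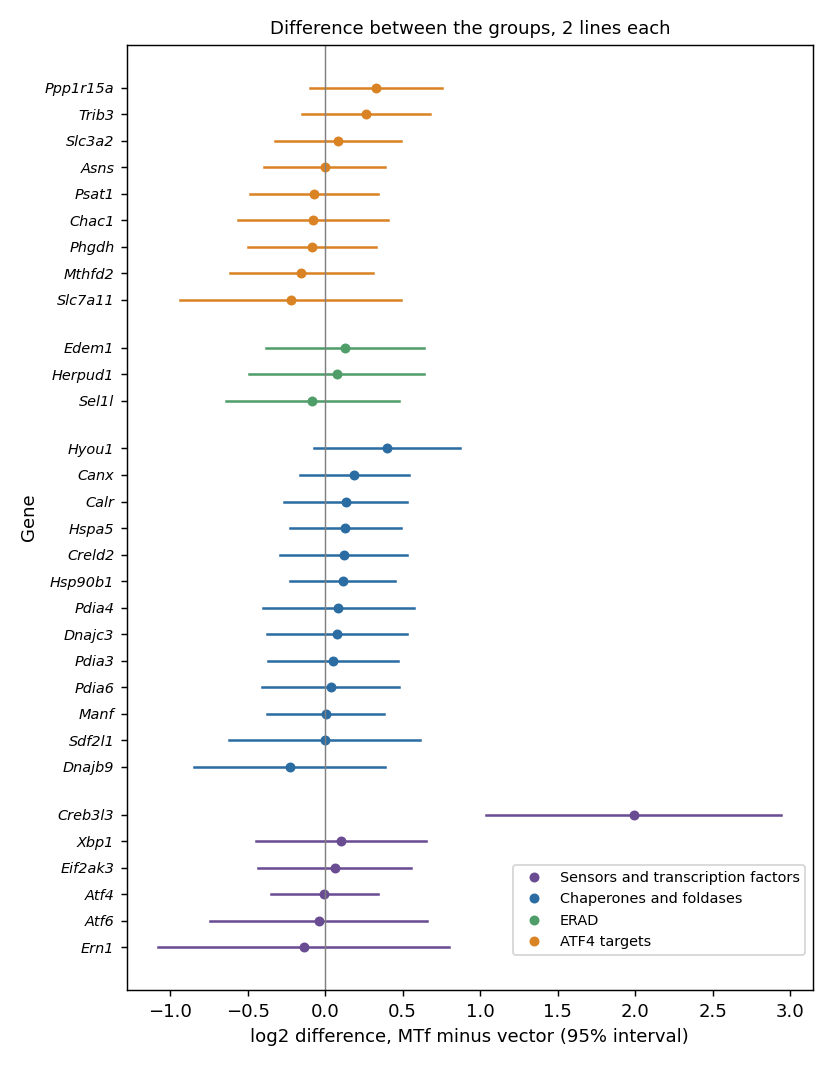
Points are log2 differences of MTf minus vector for the 31 tested genes (2 lines per group), with lines for the 95% interval from limma, ordered within each class. Creb3l3, at 1.99, is the only gene whose interval does not hold 0. It passed the filter only through the clones, so it had to differ.

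Among ATF4 targets, the feedback genes stood apart from those of amino acid supply, a division made after the values were seen. Trib3, a pseudokinase that restrains ATF4, was at 6680 and 7149 in vectors 1 and 2 and at 8795 and 7856 in MTf 4 and 6. Ppp1r15a, the GADD34 subunit that has eIF2 dephosphorylated, was at 4967 and 4360 in vectors 1 and 2 and at 5871 and 5847 in MTf 4 and 6. Both clones were above both vector lines for either gene, and MTf 4 was the highest. The log2 differences were 0.27 (SE 0.18, 95% interval -0.15 to 0.68) for Trib3 and 0.33 (SE 0.18, 95% interval -0.10 to 0.76) for Ppp1r15a, and neither passed (limma, adjusted p = 1.00). A second Trib3 probe set differed by 0.06 and overlapped, with MTf 6 the lowest line.

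Genes of amino acid supply were low in MTf 4. Asns, asparagine synthetase, was at 26909 and 28043 in vectors 1 and 2 and at 24789 and 30291 in MTf 4 and 6. Mthfd2, a mitochondrial folate enzyme, was at 8895 and 9584 in vectors 1 and 2 and at 7266 and 9483 in MTf 4 and 6. Slc7a11, the cystine transporter of system xc-, was at 1054 and 823.7 in vectors 1 and 2 and at 598.9 and 1052 in MTf 4 and 6. MTf 4 was the lowest line in each, and MTf 6 was 1.22-fold above it for Asns and 1.72-fold for Slc7a11. The groups overlapped, with log2 differences of -0.0036 (95% interval -0.39 to 0.39), -0.15 (95% interval -0.61 to 0.31) and -0.22 (95% interval -0.93 to 0.49). A second Slc7a11 probe set was also lowest in MTf 4, at 389.7 against 601.4 to 717.2, and there both clones were below both vector lines.

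By their brightest probe sets the serine enzymes behaved alike. Psat1, phosphoserine aminotransferase, was at 32806 and 31574 in vectors 1 and 2 and at 26851 and 34879 in MTf 4 and 6. Phgdh, the first enzyme of serine synthesis, was at 29141 and 27639 in vectors 1 and 2 and at 23679 and 30327 in MTf 4 and 6. All 4 Phgdh probe sets are of a kind whose probes can match other transcripts, 2 further ones are annotated to Phgdh together with predicted genes, and 2 of the 4 were lowest in vector 2 and not in MTf 4. Its values are therefore uncertain. Chac1, which degrades glutathione, was lowest in MTf 4, at 3119 against 3452 to 3960. Slc3a2, the heavy chain shared by amino acid transporters, was lowest in vector 2, at 14102 against 14951 to 17085. Over the 7 genes of supply and glutathione, median deviations were 0.06, 0.0087, -0.22 and 0.14 from vector 1 to MTf 6, and over both feedback genes -0.13, -0.17, 0.19 and 0.11. Vldlr stayed dim, at most 186.6 on any array by any of its 6 probe sets.

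**Figure D4:**
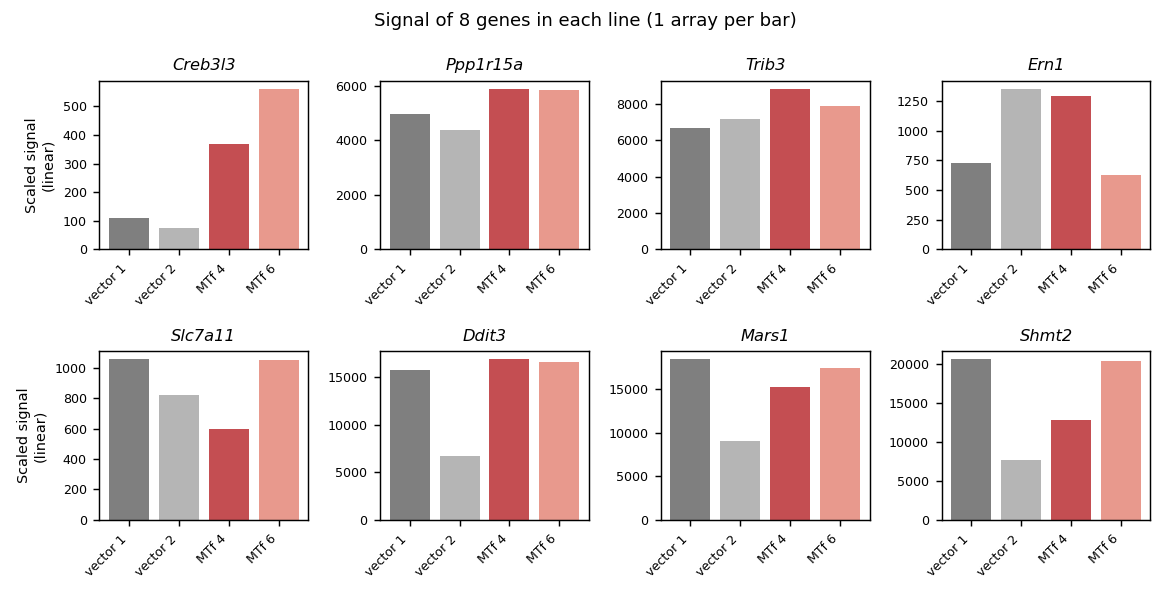
Bars give the scaled linear signal of 8 genes in each line, 1 array per bar, with axes from 0. Creb3l3, Ppp1r15a and Trib3 are higher in both clones, Ern1 is high in vector 2 and MTf 4, Slc7a11 is lowest in MTf 4, and Ddit3, Mars1 and Shmt2 are lowest in vector 2.

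Further genes of both responses were taken from lists that were set by function. Of 32 tested genes of the unfolded protein response, 17 were higher and 15 lower in the clones, with a median log2 difference of 0.02, and of 34 of the integrated stress response the median was -0.03, with 16 higher and 18 lower. None of the 78 and 75 tested probe sets of these lists passed the test (limma). An unadjusted p under 0.05 was found for 2 and 1 of them, in Uggt1 and Ssr1 and in Iars1, none of these being the brightest probe set of its gene. Vector 1 was the lowest line for 15 of the 32, against 24.9% of all genes, and MTf 4 for 15 of the 34, against 26.2%. Median deviations of the former were -0.11 and 0.11 in vectors 1 and 2 and -0.00053 and -0.0027 in MTf 4 and 6. In MTf 4, where the chaperones all lay above their mean, 16 of these genes lay above and 16 below. Those of the latter were 0.016 and -0.019 in vectors 1 and 2 and -0.067 and 0.097 in MTf 4 and 6. The same 4 arrays lie under both lists and the members, and no test of likeness was made.

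Erlec1, an ER lectin of ERAD, had the sensors' pattern at 3245 and 6076 in vectors 1 and 2 and 5752 and 3679 in MTf 4 and 6. Sil1, an exchange factor of BiP, was at 475.4, 823.2, 907.6 and 618.0 in the same order of lines. Atf5, a transcription factor translated like ATF4, was at 3370 and 5282 in vectors 1 and 2 and at 6660 and 3726 in MTf 4 and 6. In these 3 genes vector 2 and MTf 4 were again the high lines. Creb3l1, an ER membrane factor of matrix-secreting cells, was at 1629, 2271, 1554 and 1238 in that order, lower in both clones by 0.46 (95% interval -1.04 to 0.11). Stc2, a secreted glycoprotein induced by ER stress, and Iars1, the isoleucine tRNA synthetase, were likewise lower in both clones, by log2 differences of -0.39 and -0.26, and did not pass.

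Ddit3, which encodes CHOP, a factor of the PERK branch, had its low line in vector 2. It was at 15774 and 6749 in vectors 1 and 2 and at 16851 and 16577 in MTf 4 and 6. Both clones were above both vector lines, by a log2 difference of 0.69 (95% interval -0.14 to 1.53; limma, adjusted p = 1.00), but vector 1 lay close to the clones and vector 2 far below all 3. Mars1, the methionine tRNA synthetase, was at 18429, 9078, 15253 and 17436 in that order, and Shmt2, a mitochondrial serine enzyme, at 20644, 7769.8, 12888 and 20469. Os9, an ERAD lectin, was at 2622, 1941, 3653 and 2687. All 4 genes lie close to each other on chromosome 10, Mars1 being next to Ddit3 among the tested genes.

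Of the 20 tested genes nearest to Ddit3, 10 on each side, 14 were lowest in vector 2, against 19.7% of all genes. Mars1, Shmt2 and Os9, named above for their low signal in vector 2, are among these 14. Over the 20 genes the median difference between vector 2 and the mean of the other 3 lines was -0.95, where Ddit3 itself was at -1.28. The whole of chromosome 10 stood at -0.25 in vector 2 by the median deviation of 513 genes. What part this stretch has in the Ddit3 values was not tested. Derl3, an ERAD channel gene farther away on the chromosome, was at 211.0, 189.0, 212.5 and 465.2 from vector 1 to MTf 6. Creb3l3 and Hsp90b1 are also on chromosome 10, and without that chromosome 11 of 12 chaperones were still lowest in vector 1. Without it, 14 of 30 further genes of the integrated stress response were lowest in MTf 4. Yars1, the tyrosine tRNA synthetase, and Creb3, an ER membrane factor, were highest in MTf 6, at 6882 and 5623, and both lie on chromosome 4, whose 643 genes stood at 0.22 there. A dim Creb3 probe set had both clones (145.3 and 213.9) below both vector lines (312.2 and 330.5), while its other tested probe sets were also highest in MTf 6.

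Each array had a 2%-trimmed mean signal of 1000.01, and the 3' over 5' ratio of the Actb controls was 1.21 to 1.31, highest in MTf 6. The brightest signal on an array ran from 96153 in vector 1 to 131292 in MTf 4, the same lines between which the chaperones, many of them very bright, differed, and its part in their values was not tested. Of 6 fibroblast markers 5 were tested, all but Thy1, with summed signals of 167458 and 183087 in the vector lines and 203360 and 181038 in the clones. The fibroblast sum was thus lowest in vector 1 and highest in MTf 4, and its part in the chaperone values was not tested. By their brightest probe sets Col1a1, Col1a2, Vim and S100a4 had the same lowest and highest lines as the sum. Pdgfrb had the reverse, at 2006 in vector 1 and 1190.7 in MTf 4. Markers of other cells passed the filter for 3 of 4 macrophage, 2 of 4 epithelial, 0 of 3 endothelial and 1 of 3 muscle genes, and for 1 of 4 genes of plasma cells and hepatocytes. Ptprc, which defines blood cells, was at most 88.8, Pecam1 at most 34.2 and Jchain at most 97.6. Others were brighter, such as Csf1r at up to 762.1 and Sdc1 at up to 6022. By 1 probe set the epithelial marker Epcam was at 130.5 and 40.1 in vectors 1 and 2. In MTf 4 and 6 it was at 325.5 and 404.7, a log2 difference of 1.87 (95% interval 0.66 to 3.07; limma, adjusted p = 1.00). Like Creb3l3, it passed the filter only through the clones, so it had to differ. The other Epcam probe set was at most 21.9 on any array. By its brightest probe set the other tested epithelial gene, Krt8, was at 572.1 and 505.4 in vectors 1 and 2. In MTf 4 and 6 Krt8 was at 418.9 and 520.4, so the groups overlapped. Its dimmer probe sets differed by -0.16 and 0.21. Cdh1 and Krt18 were too dim to test. The summed epithelial signals were 810.2 and 637.3 in the vector lines and 808.0 and 1120.1 in the clones, and their part in the Creb3l3 values was not tested. Where a gene had several tested probe sets, as in 22 genes, 14 had group differences of 1 sign and the median span between probe sets was 0.17.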

How the data were processed

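Each array came with 1 linear intensity per probe set, made by the authors with GCOS 1.3 per the submitters' processing notes. For its settings the sources used here give nothing. Arrays were used as deposited, since their trimmed means were equal. Signals were converted to log2(signal + 32), which makes changes of dim genes look smaller. A probe set was tested where its mean signal reached 205.6, the median over those that are not controls. MTf minus vector was tested with limma 3.58.1 in R 4.3.3 (linear fit, moderated with a mean-variance trend), with Benjamini-Hochberg adjustment over all 22519 probe sets and a threshold of 0.05. With 2 arrays per group no exact permutation test can go below p = 0.333, and the number of arrays limits the precision. A gene was represented by its tested probe set with the highest mean. The members, lists and the rule for named genes (6 set genes, and per class the 3 smallest p and the 3 widest ranges, with 4 of each per further list) were chosen with earlier results of these data known. Other members are given as values. The scripts were tested on simulated data, and 12 alternative settings, 4 that left out 1 array and 1 added after the data were seen were run. Counts of the lowest line were recomputed under them after the data were seen.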

Additional observations from a re-analysis of the deposited data

How the results depend on the processing

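In every setting run, 0 member probe sets passed limma's test. The count over all tested probe sets was 0 without the filter, 0 with the stricter filter and 0 without the trend, and between 1 and 22 with 1 array left out (2 without vector 1, 22 without MTf 4 and 6 without MTf 6). The medians over gene lists depended on single lines. With 1 array left out the chaperone median lay between -0.067 and 0.23 and that of ATF4 targets between -0.24 and 0.14. In the 11 other settings they lay between 0.06 and 0.11 and between -0.08 and -0.04. Chaperones minus ATF4 targets kept its sign in all 4 lines but not its size. With 1 array left out, the gap lay between 0.015 (without vector 1) and 0.21 (without MTf 4) in vector 2, between -0.22 (without vector 1) and -0.084 (without MTf 4) in MTf 6, between -0.26 and -0.12 (without MTf 4) in vector 1 and between 0.22 and 0.28 in MTf 4. The number of chaperones lowest in vector 1 was 9 of 10 to 13 of 13 in most settings. It was 11 of 13 with the mean of all tested probe sets of a gene, and 10 of 13 after quantile normalization. The number of ATF4 targets lowest in MTf 4 lay between 5 (of 8, with the stricter filter) and 7 wherever MTf 4 was kept. Among single genes not called in any setting, signs turned after median scaling for Asns (0.027), Atf4 (0.025) and Sdf2l1 (0.026) and after quantile normalization for Hspa5 (-0.010). With 1 array left out, log2 differences reached from -0.15 to 0.14 for Asns, -0.043 to 0.032 for Atf4, -0.40 to 0.32 for Atf6, -0.52 to 0.064 for Dnajb9, -0.071 to 0.33 for Edem1 and -0.64 to 0.37 for Ern1. They reached from -0.20 to 0.35 for Herpud1, -0.018 to 0.28 for Hspa5, -0.34 to 0.038 for Mthfd2, -0.34 to 0.33 for Sdf2l1, -0.34 to 0.18 for Sel1l, -0.61 to 0.17 for Slc7a11 and -0.23 to 0.43 for Xbp1. The sign held for Canx, Creb3l3, Hyou1, Ppp1r15a and Trib3 wherever they were tested. In each of these both clones lay above both vector lines, so leaving out 1 array could not have turned it. Why single values moved was not tested. No paired analysis was possible because the groups share no replicate numbers.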
